A study of Mus musculus with 6 samples.

Results

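Respiratory complex I genes encode the enzyme through which NADH feeds electrons into the mitochondrial respiratory chain, together with the proteins that build it. The members were all rows of the per-mouse expression table whose gene name starts with Nduf, which gave 45 of 24238 usable genes: 38 subunits and 7 assembly factors, whose names start with Ndufaf. RNA came from whole ventricles of male C57BL/6 mice aged 8 to 10 weeks, 3 after atrial pacing and 3 sham controls that were not paced. In the paced mice a bipolar catheter in the esophagus, next to the atria, drove the heart with cycles of 80 ms for 45 min a session, preceded and followed by 3 min at 120 ms. They had 5 daily sessions, a break of 2 days and 3 more daily sessions. Each mouse was sequenced as 1 stranded polyA library, and the comparison addresses which ventricular transcripts differ after this repeated pacing.

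Complex I is the largest enzyme of the respiratory chain and pumps protons across the inner mitochondrial membrane while passing electrons to ubiquinone. A small core inherited from bacteria carries out the reaction, and many further subunits, called supernumerary, surround and stabilise it. The core of the membrane arm is encoded by mitochondrial DNA, and all other subunits are nuclear genes whose products are imported and joined in separate modules with the help of assembly factors. In the heart, which is rich in mitochondria, this enzyme handles most of the NADH made from fatty acids and other fuels.

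The deposited values are FPKM, that is fragments scaled to transcript length and to library size, and a log2 fold change below is pacing minus sham on log2(FPKM + 1). All 45 members exceeded the filter of a mean FPKM of 1. The effective depth, read from the steps of the lowest values, ranged from 6276000 to 8908000 fragments per library. Ventricular muscle markers were abundant in every mouse, and all 14 of them had a negative fold change. Transcripts of lung were present in 2 paced mice only, at summed marker levels of 313 FPKM in pacing 2 and 1718 FPKM in pacing 3, against 2.44 FPKM in pacing 1 and between 0.462 and 4.96 FPKM in the sham mice, where 3 to 5 of 7 lung markers were at the floor of the file. Atrial marker sums were 5725, 14642 and 10461 FPKM in pacing 1, 2 and 3. In sham 1, 2 and 3 they were 12648, 429 and 5292 FPKM. All 6 atrial markers had a positive log2 fold change, with a median of 1.78. In bulk tissue, fewer cells of a type and less RNA per cell cannot be told apart.

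Subunit transcripts were abundant and assembly factor transcripts were not. The median mean FPKM over the 6 mice was 662.5 for the subunits and 22.1 for the assembly factors, a ratio of 30.0. The subunits ran from Ndufa4l2 at 27.3 FPKM to Ndufa4 at 3753 FPKM. The assembly factors ran from Ndufaf5 at 11.8 FPKM to Ndufaf1 at 46.8 FPKM, so that only Ndufa4l2 among the subunits lay inside their range. Ndufa4 was first described as a complex I subunit and is now placed in cytochrome c oxidase, and Ndufa4l2 is its paralogue, known as a target of the hypoxia response. Replicate spread was small in both classes: the median coefficient of variation was 5.94% in paced and 8.87% in sham mice for the subunits, and 5.23% in paced and 4.71% in sham mice for the assembly factors. Counting error alone gives a median of 1.62% for the subunits and 6.26% for the assembly factors at the lowest fragment number of each gene over the mice. Among single assembly factors the spread exceeded the counting value most in Ndufaf1, at 10.6% in sham mice against 5.13%.

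**Figure D1:**
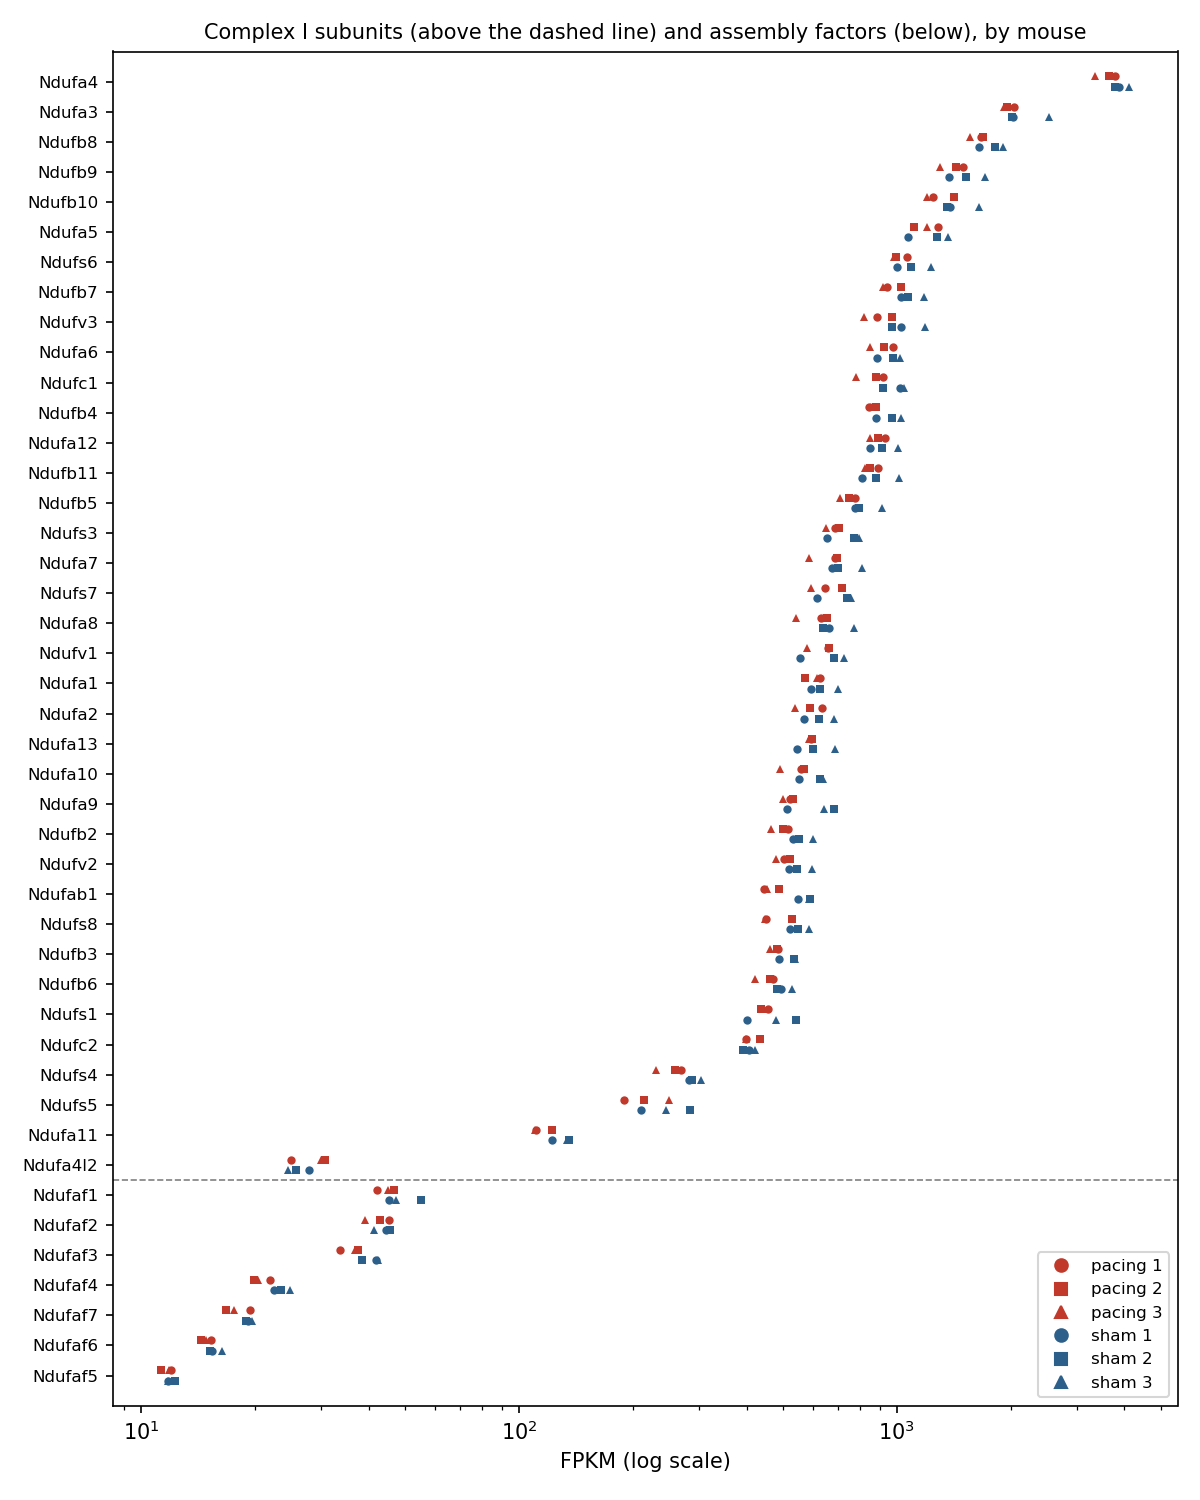
FPKM of 44 of the 45 members on a log axis, with 1 point per mouse, the 3 paced mice in red above the 3 sham mice in blue in each row. Subunits stand above the dashed line and run from 27.3 to 3753 FPKM on average, and the 7 assembly factors below it stay between 11.8 and 46.8 FPKM.

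The subunits lay slightly lower in paced than in sham ventricles, and no single subunit passed the test. Of 38 subunits, 36 had a negative fold change, where 51.8% of all 11994 genes tested had one, and their median log2 fold change was -0.13, against -0.01 over all genes. In linear terms the median difference was -8.89%, with a range from -19.7% to 9.65%. At an adjusted p under 0.05 in limma, 0 of 38 subunits were called, as were 0% of all genes. The lowest adjusted p of a subunit was 0.399. At an unadjusted p under 0.05, 3 subunits were lower, Ndufab1, Ndufs4 and Ndufv3, and 0 were higher. Over all genes 8.85% passed this threshold, 3.69% lower and 5.17% higher. Every paced mouse lay below every sham mouse in 8 of 38 subunits, beside 6.97% of all genes, and above in 0, beside 6.24%. These 8 were Ndufab1, Ndufc1, Ndufs4, Ndufb2, Ndufb6, Ndufb5, Ndufa4 and Ndufb3. After FPKM were rescaled to the same sum in each mouse, 29 subunits had a negative fold change with a median of -0.06, against 0.06 over all genes, and 7 lay lower without overlap, beside 2.72% of all genes. These 7 were Ndufab1, Ndufb2, Ndufb4, Ndufb7, Ndufs4, Ndufs8 and Ndufv2. Of the 8 named before, Ndufa4, Ndufb3, Ndufb5, Ndufb6 and Ndufc1 overlapped after rescaling. After quantile normalization, 31 had a negative fold change and the median was -0.07, against -0.03 over all genes, a gap of -0.05 in place of the -0.13 of the reported fit. The standard errors ran from 0.08 to 0.13, and the 95% confidence intervals of all 38 lay between -0.50 and 0.35, which excludes a change of 1 on the log2 scale in either direction. Since all members were measured in the same 6 mice, their values are not independent of each other.

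The sham mice spanned a wider range than the difference between the group means. The summed subunit FPKM was 31211, 31105 and 28803 in pacing 1, 2 and 3, against 30965, 33002 and 36163 in sham 1, 2 and 3, with means of 30373 ± 1361 and 33377 ± 2619 (SD, n = 3 each). Sham 1 thus lay between paced mice, pacing 3 below all others and sham 3 above all others. As a share of all FPKM, subunits made up 4.61%, 4.52% and 4.37% in pacing 1, 2 and 3, against 4.61%, 4.66% and 4.78% in sham 1, 2 and 3. Sham 3 held the highest value of 30 of the 38 subunits and pacing 3 the lowest of 26. By library, sham 3 also had the lowest effective depth, 6276000 fragments, and the highest FPKM sum over all genes, 756507. Pacing 3 had the highest depth, 8908000 fragments, and the lowest sum, 658677. The part of depth and scale in the subunit difference was not tested. The median deviation of the subunits from their own mean over the 6 mice, on the log2 scale, was -0.02, -0.03 and -0.15 in pacing 1, 2 and 3, against -0.04, 0.06 and 0.17 in sham 1, 2 and 3. The same median over all genes stayed near 0 in every mouse. Without pacing 3 and sham 3, 26 subunits had a negative fold change and the median was -0.04. Without sham 1 the median was -0.20, and 12 subunits were lower at an unadjusted p under 0.05, beside 6.12% of all genes lower and 8.30% higher in that fit. None of them had an adjusted p under 0.05 in limma (lowest adjusted p = 0.114), while 100 genes in all did. Without sham 3 the median was -0.08.

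**Figure D2:**
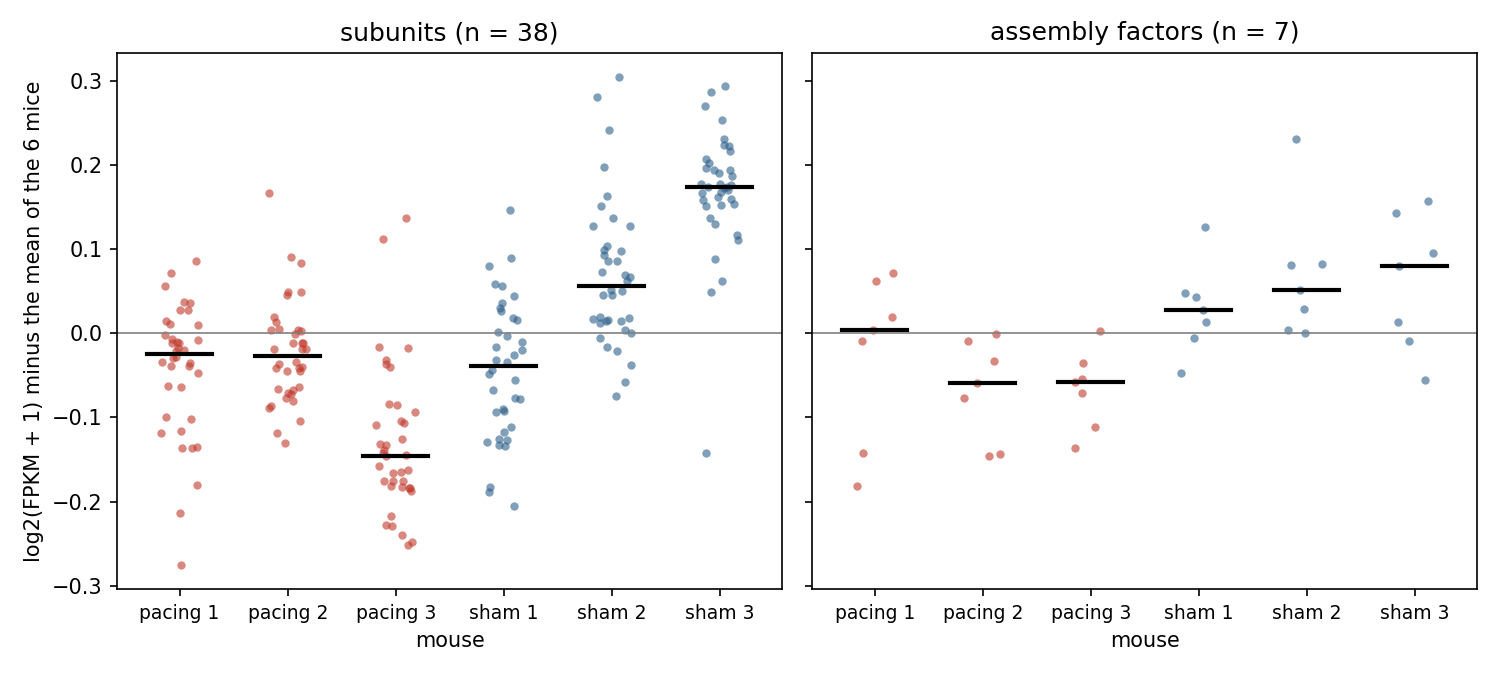
Deviation of each member from its own mean over the 6 mice, in log2(FPKM + 1), with 1 point per gene, subunits on the left and assembly factors on the right, and black bars for the median in each mouse. The subunits of sham 3 are centred at 0.17 and those of pacing 3 at -0.15, while sham 1, at -0.04, overlaps the paced mice.

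The 7 nuclear core subunits carry the cofactors that take electrons from NADH to ubiquinone. All 7 had negative fold changes with a median of -0.12, beside 51.8% of all genes negative. In 0 of them did all paced mice lie below all sham mice, beside 6.97% of all genes. After rescaling to the same FPKM sum, all paced mice lay below all sham mice in Ndufs8 and Ndufv2, beside 2.72% of all genes. Ndufv1 binds NADH and the flavin that first accepts its electrons. Its FPKM was 656.9, 661.6 and 579.1 in pacing 1, 2 and 3, against 555.8, 683.7 and 724.6 in sham 1, 2 and 3. The sham mice spanned the paced range, and the fold change was -0.04 (SE 0.12, limma adjusted p = 0.947). Ndufv2, an iron-sulfur protein beside it, had 503.8, 521.9 and 479.6 FPKM in pacing 1, 2 and 3, against 518.7, 544.8 and 594.5 FPKM in sham 1, 2 and 3. Only pacing 2 reached above sham 1, and the fold change was -0.14 (SE 0.09, limma adjusted p = 0.691). Ndufs1, which holds several iron-sulfur clusters, had 456.1, 437.5 and 445.8 FPKM in pacing 1, 2 and 3, against 402.3, 542.0 and 478.7 FPKM in sham 1, 2 and 3. The paced mice lay close together inside the sham range.

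Ndufs3, Ndufs7 and Ndufs8 belong to the part that leads to the ubiquinone site. Ndufs3 had 684.3, 701.3 and 648.0 FPKM in pacing 1, 2 and 3, against 654.1, 772.1 and 794.1 FPKM in sham 1, 2 and 3. Sham 1 lay among the paced mice and sham 2 and 3 above them, with a log2 fold change of -0.12 (SE 0.10, limma adjusted p = 0.772). Ndufs7 had 644.5, 713.5 and 593.0 FPKM in pacing 1, 2 and 3, against 615.6, 735.9 and 756.0 FPKM in sham 1, 2 and 3, with sham 1 again among the paced mice. The deposited span of Ndufs7 is shared with 48 other rows, so its position and value are less certain than those of most members. Ndufa10, Ndufa13, Ndufa2, Ndufa4l2, Ndufb11 and Ndufs1 also share a span with other rows. Ndufs8 had the most negative fold change of the core, at 450.8, 529.1 and 448.8 FPKM in pacing 1, 2 and 3, against 520.7, 547.2 and 584.9 FPKM in sham 1, 2 and 3. Pacing 2 lay above sham 1 and the other paced mice below all sham mice (log2 fold change -0.21, SE 0.10, limma adjusted p = 0.577).

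The 3 subunits with the most negative fold changes belong to different modules. Ndufab1 is the mitochondrial acyl carrier protein, which serves in fatty acid synthesis and iron-sulfur cluster assembly as well as in complex I. It had 444.0, 488.2 and 453.6 FPKM in pacing 1, 2 and 3, against 548.2, 590.6 and 586.5 FPKM in sham 1, 2 and 3. The groups did not overlap, and the gap between the highest paced and the lowest sham mouse was wider than the range of either group. The means were 461.9 ± 23.2 FPKM in paced and 575.1 ± 23.4 FPKM in sham mice (SD, n = 3 each). The log2 fold change was -0.32 (SE 0.08, 95% confidence interval -0.50 to -0.13), a difference of -19.7% that did not pass over all genes (limma adjusted p = 0.399). Ndufab1 lies on chromosome 7 from 122088044 to 122101848 in mm10. A non-coding copy of it is annotated elsewhere in GENCODE and has no row of its own in the table, so fragments from near-identical sequence could not be separated. The same holds for Ndufa11, Ndufb4 and Ndufs6.

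Ndufv3, a supernumerary subunit of the NADH-binding module, had 883.6, 973.3 and 817.3 FPKM in pacing 1, 2 and 3, against 1026, 973.1 and 1190 FPKM in sham 1, 2 and 3. Pacing 2 and sham 2 met at the same level and the remaining mice were apart (log2 fold change -0.25, SE 0.11, limma adjusted p = 0.563). Ndufa9, which binds a nucleotide near the joint of the arms, had 522.6, 529.5 and 500.2 FPKM in pacing 1, 2 and 3, against 510.8, 680.5 and 640.5 FPKM in sham 1, 2 and 3. Sham 1 lay among the paced mice, and the sham SD of 88.7 FPKM was far wider than the paced SD of 15.3 FPKM (log2 fold change -0.23, SE 0.11, limma adjusted p = 0.633). Ndufs4, an accessory subunit whose loss causes a Leigh-like disease in mice, was named after its values were seen. It had 268.6, 258.3 and 230.9 FPKM in pacing 1, 2 and 3, against 281.3, 287.1 and 302.9 FPKM in sham 1, 2 and 3. All paced mice lay below all sham mice (log2 fold change -0.20, SE 0.09, limma adjusted p = 0.562).

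**Figure D3:**
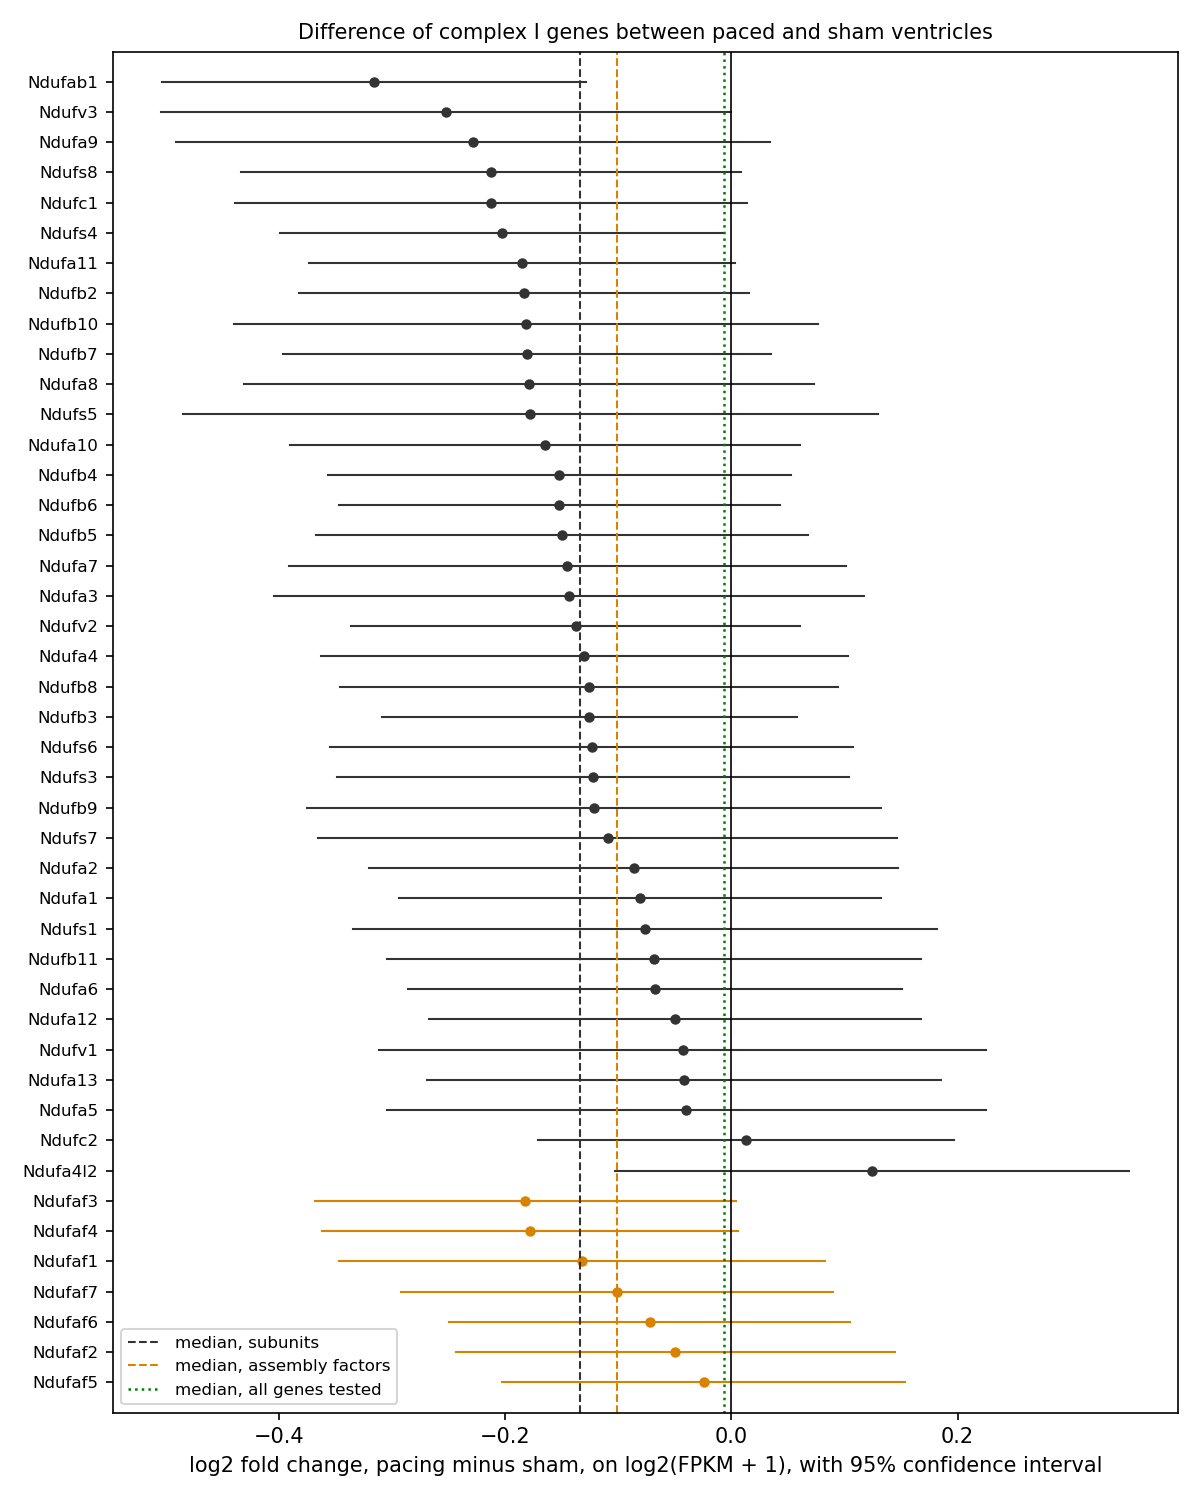
Log2 fold change of 44 of the 45 members, pacing minus sham, on log2(FPKM + 1), with 95% confidence intervals from limma, subunits in black above the assembly factors in orange. Ndufab1 at -0.32 is at the top and Ndufa4l2 at 0.12 ends the subunits, and the dashed medians of -0.13 and -0.10 lie left of the dotted median of all genes at -0.01.

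By assembly module, the median log2 fold changes lay close together. They were -0.10 over 8 genes of the N module, which oxidises NADH, and -0.12 over 8 genes of the Q module, which reduces ubiquinone. In the membrane arm they were -0.11 over 4 genes of the ND1 module, -0.18 over 5 of ND2, -0.15 over 5 of ND4 and -0.15 over 6 of ND5. The differences between modules were not tested, and the ranges of their single genes overlapped. In the N module, Ndufs6, a zinc-binding subunit, had 1063, 992.6 and 980.8 FPKM in pacing 1, 2 and 3, against 1001, 1090 and 1228 FPKM in sham 1, 2 and 3. In the ND1 module, Ndufa3 had 2045, 1954 and 1923 FPKM in pacing 1, 2 and 3, against 2026, 2021 and 2531 FPKM in sham 1, 2 and 3. The difference in means of Ndufa3 rested on sham 3, since the other 2 sham mice lay inside the paced range. Ndufa1, a small membrane subunit on the X chromosome, had 626.5, 571.4 and 612.9 FPKM in pacing 1, 2 and 3, against 592.1, 626.5 and 699.9 FPKM in sham 1, 2 and 3, again with overlap.

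In the ND2 module, Ndufa11 had 111.2, 122.6 and 110.5 FPKM in pacing 1, 2 and 3, against 122.0, 135.9 and 134.0 FPKM in sham 1, 2 and 3. Only pacing 2 reached the level of sham 1. Ndufs5 had 190.0, 214.0 and 248.7 FPKM in pacing 1, 2 and 3, against 210.8, 284.2 and 244.5 FPKM in sham 1, 2 and 3. It departed from the median pattern of the subunits across mice, with its highest paced value in pacing 3. Its range around that pattern was 0.51 on the log2 scale, and only Ndufa4l2 departed more. In the ND4 module, Ndufb6 had 471.4, 461.9 and 420.9 FPKM in pacing 1, 2 and 3, against 495.0, 480.5 and 528.9 FPKM in sham 1, 2 and 3. Its groups did not overlap, although the gap was small (log2 fold change -0.15, SE 0.09, limma adjusted p = 0.661). Ndufb4 had 845.4, 881.5 and 855.9 FPKM in pacing 1, 2 and 3, against 880.3, 971.7 and 1023 FPKM in sham 1, 2 and 3, and overlapped between pacing 2 and sham 1. In the ND5 module, Ndufb7 had 943.1, 1027 and 917.9 FPKM in pacing 1, 2 and 3, against 1025, 1072 and 1179 FPKM in sham 1, 2 and 3. Ndufb8, whose protein is widely used as an immunoblot marker of assembled complex I, had 1666, 1689 and 1562 FPKM in pacing 1, 2 and 3, against 1647, 1816 and 1909 FPKM in sham 1, 2 and 3. In Ndufb7 and Ndufb8 the overlap came from sham 1 alone.

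The other subunits without overlap as deposited had narrower gaps than Ndufab1, and were likewise named after their values were seen. Ndufc1, of the ND2 module, had 918.8, 878.5 and 781.5 FPKM in pacing 1, 2 and 3, against 1022, 919.7 and 1044 FPKM in sham 1, 2 and 3, so that pacing 1 and sham 2 met within 1 FPKM. Ndufb2 had 515.4, 500.5 and 465.3 FPKM in pacing 1, 2 and 3, against 531.3, 551.7 and 599.9 FPKM in sham 1, 2 and 3. Ndufb5 met within 1 FPKM at pacing 1 and sham 1, with 772.7, 748.3 and 708.6 FPKM in pacing 1, 2 and 3, against 773.6, 792.2 and 913.0 FPKM in sham 1, 2 and 3. Ndufb3 had 483.9, 482.1 and 462.5 FPKM in pacing 1, 2 and 3, against 488.6, 534.2 and 536.9 FPKM in sham 1, 2 and 3. In each of these 4 genes the lowest value was that of pacing 3. A further 10 subunits, Ndufa2, Ndufa6, Ndufa7, Ndufa8, Ndufa10, Ndufa12, Ndufa13, Ndufb9, Ndufb10 and Ndufb11, overlapped between the groups and had fold changes from -0.18 to -0.04.

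In the reported fit, the most abundant member and its paralogue had fold changes of opposite sign, and neither passed the test. Ndufa4 had 3774, 3644 and 3338 FPKM in pacing 1, 2 and 3, against 3862, 3782 and 4117 FPKM in sham 1, 2 and 3. The groups did not overlap, but pacing 1 and sham 2 were nearly equal (log2 fold change -0.13, SE 0.10, limma adjusted p = 0.765). Ndufa4l2 had 25.0, 30.6 and 30.0 FPKM in pacing 1, 2 and 3, against 27.8, 25.7 and 24.5 FPKM in sham 1, 2 and 3. Pacing 1 lay inside the sham range and pacing 2 and 3 above it (log2 fold change 0.12, SE 0.10, limma adjusted p = 0.769). Pacing 2 and 3 are also the mice with lung transcripts, and without them the log2 fold change of Ndufa4l2 was -0.05. The part of lung transcripts in its difference was not tested. Of all members, Ndufa4l2 departed most from the median pattern of the subunits across mice. Its range was 0.60 on the log2 scale after the median deviation of each mouse was taken off, against a median range of 0.18. Without Ndufa4 and Ndufa4l2, 35 of 36 subunits had a negative fold change, with a median of -0.14. The exception was Ndufc2, a subunit of the ND2 module, at 398.6, 434.6 and 397.7 FPKM in pacing 1, 2 and 3, against 405.1, 391.9 and 422.4 FPKM in sham 1, 2 and 3. Its groups overlapped throughout (log2 fold change 0.01, SE 0.08, limma adjusted p = 0.982). Ndufa5, a Q module subunit, overlapped as fully, at 1286, 1107 and 1198 FPKM in pacing 1, 2 and 3, against 1067, 1274 and 1363 FPKM in sham 1, 2 and 3.

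The 7 assembly factors also lay slightly lower in paced ventricles without any passing the test. All 7 had a negative fold change, with a median of -0.10 and a range from -0.18 to -0.02, and 0 were below an adjusted or an unadjusted p of 0.05 in limma (lowest adjusted p = 0.574). Over all genes 51.8% were negative, 0% passed the adjusted threshold and 8.85% the unadjusted one. The summed FPKM of the assembly factors was 189.8, 189.1 and 185.5 in pacing 1, 2 and 3, against 200.5, 209.0 and 203.5 in sham 1, 2 and 3. As deposited, these sums did not overlap. The FPKM total over all genes was 676328, 687887 and 658677 in pacing 1, 2 and 3, against 672045, 708703 and 756507 in sham 1, 2 and 3. As a share of that total, sham 3 lay below every paced mouse, so the groups overlapped. After rescaling to the same sum, 4 assembly factors had a negative fold change and the median was -0.03, against 0.06 over all genes. In that scaling 1 of them lay lower without overlap, beside 2.72% of all genes. Without pacing 2 and 3 the assembly factor median was also -0.03, against -0.01 over all genes. Ndufaf3 and Ndufaf4, which work together early in building the Q module, were the 2 of 7 with all paced mice below all sham mice, beside 6.97% of all genes. Ndufaf3 had 33.7, 37.4 and 36.8 FPKM in pacing 1, 2 and 3, against 41.9, 38.4 and 42.4 FPKM in sham 1, 2 and 3. Its log2 fold change was -0.18 (SE 0.08, limma adjusted p = 0.574). Ndufaf4 had 21.9, 19.8 and 20.3 FPKM in pacing 1, 2 and 3, against 22.5, 23.4 and 24.7 FPKM in sham 1, 2 and 3, with the same fold change (limma adjusted p = 0.577). In both genes the gap between the groups was small beside the ranges within them.

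Ndufaf1, a factor of the intermediate that builds the membrane arm, had 42.2, 46.6 and 44.9 FPKM in pacing 1, 2 and 3, against 45.2, 55.0 and 47.1 FPKM in sham 1, 2 and 3, with sham 2 standing above the rest. Ndufaf2, which assists late assembly, had 45.3, 42.8 and 39.1 FPKM in pacing 1, 2 and 3, against 44.6, 45.7 and 41.4 FPKM in sham 1, 2 and 3, with full overlap. Ndufaf7, a methyltransferase, had 19.5, 16.7 and 17.7 FPKM in pacing 1, 2 and 3, against 19.2, 19.0 and 19.7 FPKM in sham 1, 2 and 3. Only pacing 1 reached the sham values. Ndufaf6 had 15.3, 14.4 and 14.8 FPKM in pacing 1, 2 and 3, against 15.4, 15.2 and 16.3 FPKM in sham 1, 2 and 3. Ndufaf5, which hydroxylates Ndufs7, had 12.0, 11.3 and 11.9 FPKM in pacing 1, 2 and 3, against 11.8, 12.3 and 11.7 FPKM in sham 1, 2 and 3. These last values differed by less than the spread between mice (log2 fold change -0.02, SE 0.08, limma adjusted p = 0.957). Per 1000 FPKM of subunits, the assembly factors summed to 6.20 ± 0.206 FPKM in paced and 6.14 ± 0.454 FPKM in sham mice (SD, n = 3 each), a ratio that differed by less than its spread.

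Complex I assembly factors with other names also lay slightly lower in paced mice. Of 14 listed, 13 were in the table, all 13 had a negative fold change, the median was -0.12, and 2 were lower at an unadjusted p under 0.05, beside 51.8% of all genes negative and 3.69% lower at that p. All paced mice lay below all sham mice in 3 of the 13, Acad9, Timmdc1 and Tmem70, beside 6.97% of all genes. Timmdc1, which helps build the membrane arm, had 22.9, 22.2 and 23.2 FPKM in pacing 1, 2 and 3, against 25.3, 25.3 and 28.8 FPKM in sham 1, 2 and 3, without overlap (log2 fold change -0.20, limma adjusted p = 0.542). Tmem70, known for ATP synthase assembly and also tied to complex I, had 78.5, 69.3 and 73.7 FPKM in pacing 1, 2 and 3, against 81.4, 83.0 and 88.7 FPKM in sham 1, 2 and 3, also without overlap (log2 fold change -0.19, limma adjusted p = 0.554). Ndufaf8 is listed under its older name 1810043H04Rik and so falls outside the rule, at 63.1 ± 3.63 FPKM in paced and 60.6 ± 4.67 FPKM in sham mice (SD, n = 3 each). Its fold change of 0.06 was positive, unlike those of the 7 members.

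None of the listed transcription factors and coactivators that govern respiratory chain genes passed the test, where 0% of all genes did. Of 16 listed, 12 had a negative and 4 a positive fold change, and the median was -0.10, beside 51.8% of all genes negative. At an unadjusted p under 0.05 in limma there were 0 of the 16, beside 8.85% of all genes. The 2 with the smallest p were Tfam and Gabpa (limma adjusted p = 0.620 and 0.638). Tfam, the packaging protein of mitochondrial DNA, stood at 15.4 ± 0.308 FPKM in paced and 17.3 ± 0.971 FPKM in sham mice. Gabpa, an ETS factor also called NRF2 alpha, stood at 12.0 ± 0.216 FPKM in paced and 14.3 ± 2.22 FPKM in sham mice (SD, n = 3 each). Of the 4 positive log2 fold changes, the largest was 0.15 for Nrf1 (limma adjusted p = 0.707). The other complexes of the respiratory chain lay lower by like amounts. The median log2 fold change was -0.14 over 4 genes of complex II, -0.16 over 9 of complex III, -0.15 over 12 of complex IV and -0.14 over 15 of ATP synthase, against -0.13 for the complex I subunits. No test sets complex I apart from them. The 7 mitochondrially encoded subunits and Ndufb1 were not analysed here.

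The sums of ventricular muscle markers ordered the sham mice as the subunit sums did, but not the paced mice. Pacing 3 had the lowest subunit sum, whereas pacing 1 had the lowest marker sum. The 14 ventricular cardiomyocyte markers had a median log2 fold change of -0.19, and their sums were 91158, 95033 and 92331 FPKM in pacing 1, 2 and 3, against 93317, 113576 and 120744 FPKM in sham 1, 2 and 3. As with the subunits, sham 1 lay within the paced range. The ratio of the subunit sum to this marker sum was 0.342, 0.327 and 0.312 in pacing 1, 2 and 3, against 0.332, 0.291 and 0.299 in sham 1, 2 and 3. Per unit of ventricular marker, then, the subunits were on average 0.327 ± 0.0152 in paced and 0.307 ± 0.0217 in sham mice (SD, n = 3 each). This turns the direction of the difference and lies within the spread. Myl2 was the largest single term of the marker sum, at 25940 ± 606 FPKM in paced and 34040 ± 6432 FPKM in sham mice. The ratio thus leans on Myl2, and it was not computed without that gene. Fibroblast marker sums were 903, 979 and 1201 FPKM in pacing 1, 2 and 3, against 893, 714 and 742 FPKM in sham 1, 2 and 3, with 8 of 8 markers positive. Adipocyte marker sums were 2537, 1962 and 1792 FPKM in pacing 1, 2 and 3, against 1962, 1673 and 1594 FPKM in sham 1, 2 and 3, with 7 of 7 positive. Fabp4 alone made up most of each adipocyte sum, with 1694 FPKM on average in paced and 1648 FPKM in sham mice (log2 fold change 0.03). The other adipocyte markers tested had larger log2 fold changes, from 1.75 for Retn to 3.26 for Car3. In the fibroblast and adipocyte lists sham 1 was the highest of the sham mice. Macrophage marker sums were 755, 532 and 592 FPKM in pacing 1, 2 and 3, against 565, 363 and 457 FPKM in sham 1, 2 and 3, with 8 of 8 markers positive and overlap through sham 1. Red cell markers, 3 of 4 positive, summed to between 159 and 323 FPKM in paced mice and between 85.1 and 140.1 FPKM in sham mice, without overlap. Endothelial markers had a negative fold change in 7 of 7, with sums of 340.2, 387.3 and 371.3 FPKM in pacing 1, 2 and 3, against 439.0, 391.6 and 396.6 FPKM in sham 1, 2 and 3. These sums did not overlap either. The part of all these lists in the subunit difference was not tested.

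**Figure D4:**
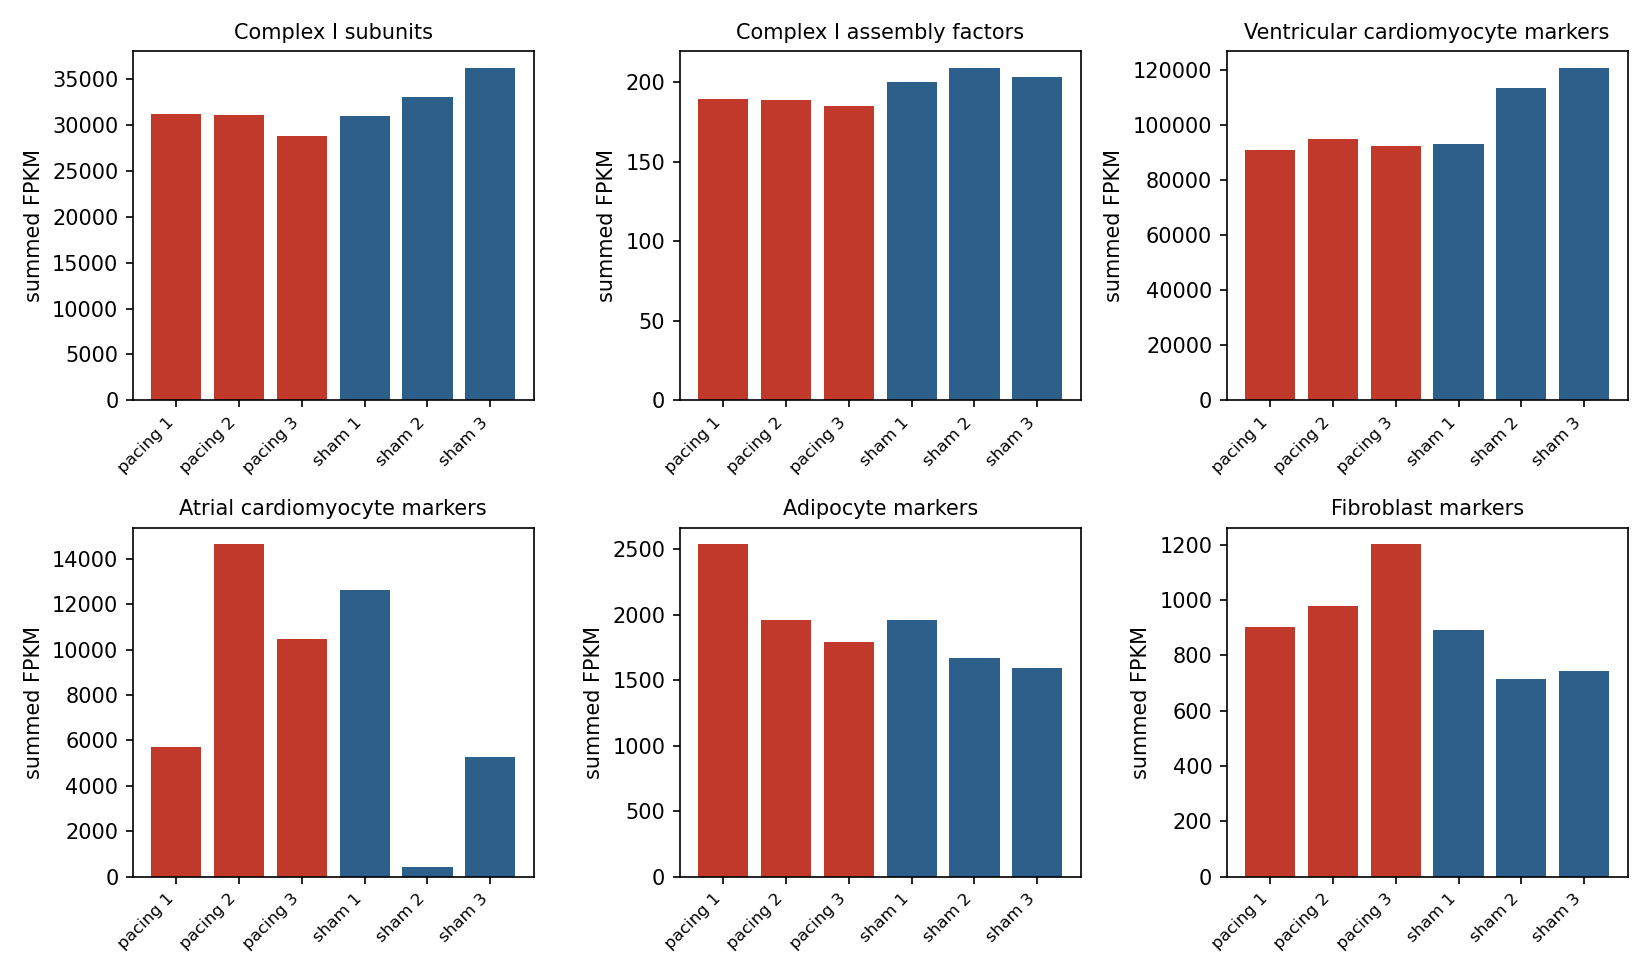
Summed FPKM per mouse of the subunits, the assembly factors and 4 lists of cell type markers, with paced mice in red on the left and sham mice in blue on the right, each axis starting at 0. Most of each adipocyte sum is Fabp4. Subunits and ventricular markers share the order of the sham mice, lowest in sham 1 and highest in sham 3. Before any scaling to the FPKM total, the assembly factor sums of the paced mice, at most 189.8, lie below those of all sham mice.

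The promoters of the members were read to show what genes that vary together across these mice share in sequence. Windows of 250 bases before the start, from RefSeq on GRCm38.p6, were found for 33 of 38 subunits and 6 of 7 assembly factors. Ndufab1 is shown for its largest difference, Ndufa8 and Ndufb2 as bearers of a motif, and Ndufc2 as a subunit with no difference. Capitals mark a motif, and each sequence runs 5′ to 3′ on the strand of its gene. Ndufab1 lies at chr7:122101849-122102098 on the minus strand, Ndufa8 at chr2:36049339-36049588 on the minus strand, Ndufb2 at chr6:39592315-39592564 on the plus strand and Ndufc2 at chr7:97399753-97400002 on the plus strand.
Ndufab1: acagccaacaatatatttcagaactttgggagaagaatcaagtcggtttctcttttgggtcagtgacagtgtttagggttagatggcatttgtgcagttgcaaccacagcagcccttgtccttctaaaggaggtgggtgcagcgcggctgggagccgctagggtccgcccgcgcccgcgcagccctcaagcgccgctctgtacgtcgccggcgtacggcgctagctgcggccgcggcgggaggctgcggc
Ndufa8: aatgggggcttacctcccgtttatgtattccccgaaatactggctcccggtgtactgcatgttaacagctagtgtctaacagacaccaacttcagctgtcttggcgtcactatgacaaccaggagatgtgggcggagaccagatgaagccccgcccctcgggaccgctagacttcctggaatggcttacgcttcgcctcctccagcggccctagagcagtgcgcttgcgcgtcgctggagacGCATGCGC
Ndufb2: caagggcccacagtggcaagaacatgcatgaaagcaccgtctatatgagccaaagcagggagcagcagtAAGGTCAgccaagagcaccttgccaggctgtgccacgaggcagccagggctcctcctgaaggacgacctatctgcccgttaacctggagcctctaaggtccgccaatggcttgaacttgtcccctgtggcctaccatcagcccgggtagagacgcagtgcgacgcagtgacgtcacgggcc
Ndufc2: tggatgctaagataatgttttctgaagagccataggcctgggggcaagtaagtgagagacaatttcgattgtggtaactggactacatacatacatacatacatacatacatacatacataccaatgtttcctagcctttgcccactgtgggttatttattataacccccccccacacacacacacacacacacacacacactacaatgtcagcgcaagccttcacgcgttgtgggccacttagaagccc

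No motif was common to the subunits. The 4 short motifs were searched on both strands, and no match printed here overlaps another. The core of the NRF1 site, GCGCATGC, was in 3 of 33 subunit promoters (9.09%), those of Ndufa11, Ndufa6 and Ndufa8, and in 2.56% of the promoters of all 27025 genes. The site of estrogen-related receptors, AAGGTCA, was in those of Ndufb2, Ndufb4 and Ndufs5, against 4.70% of all promoters. The ETS site CCGGAAG was in those of Ndufb6, Ndufb7 and Ndufs3, against 7.83%, and the YY1 site ATGGCGG in those of Ndufa1, Ndufa5 and Ndufa7, against 2.58%. Ndufab1 and Ndufc2 held none of these letters in their windows. The median GC content was 57.6% over the subunits and 61.6% over the assembly factors, against 52.4% over all promoters.

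By the authors' deposited table, none of the 38 subunits and none of the 7 assembly factors was called, beside 1.38% of all genes. The q-values in the authors' deposited table ran from 0.237 for Ndufab1 to 0.998 over the subunits. The median log2 fold change there was -0.14 over the subunits, 36 of them negative, and -0.11 over the assembly factors, all 7 negative.

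**Figure D5:**
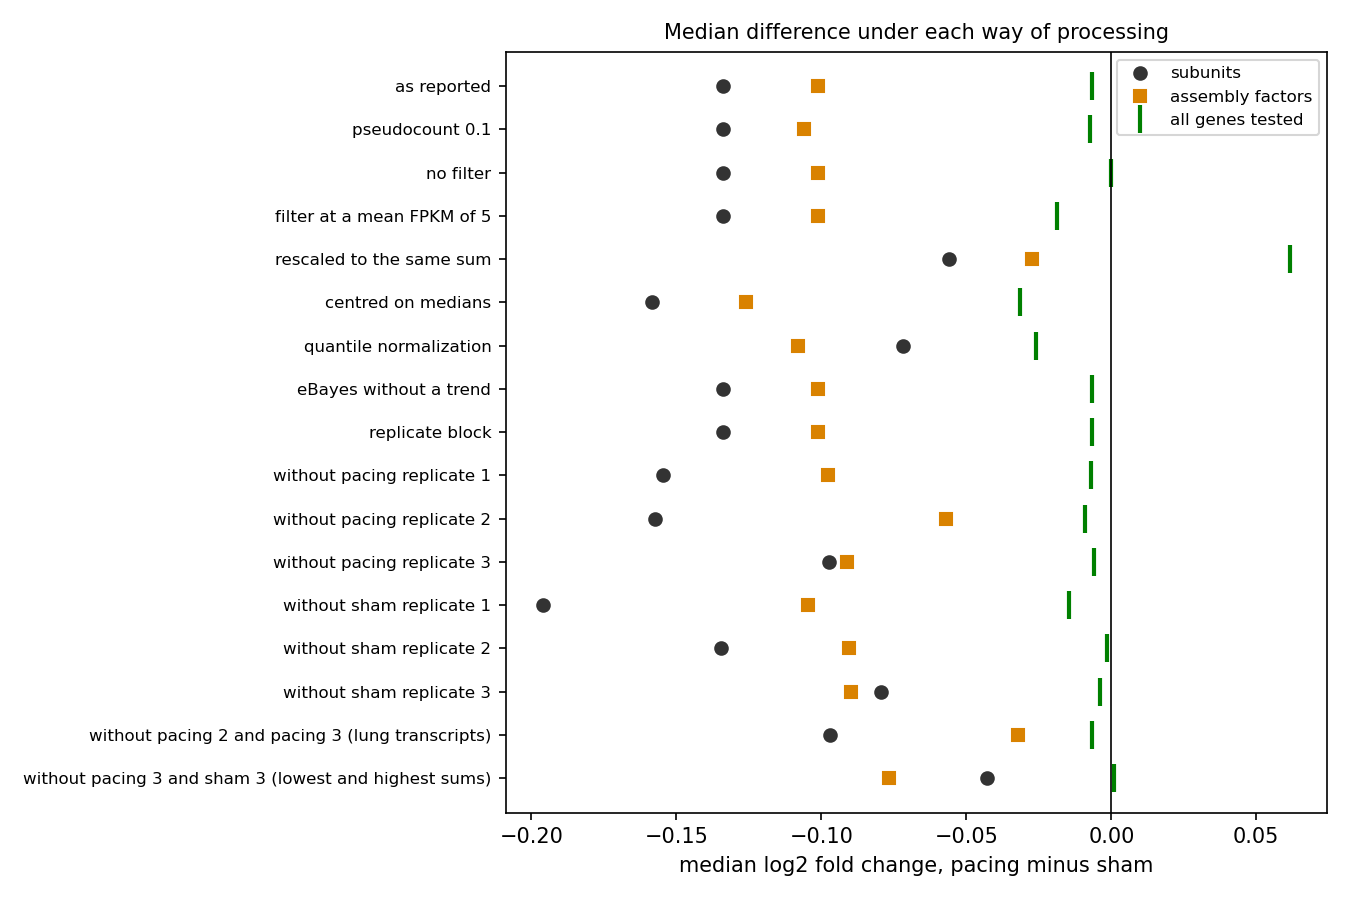
Median log2 fold change, pacing minus sham, of subunits (circles), assembly factors (squares) and all genes tested (green bars) under each way of processing. Both medians of complex I genes stay below 0 throughout, from -0.20 without sham 1 to -0.04 without pacing 3 and sham 3 for the subunits.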

How the data were processed

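The members and gene lists were chosen with earlier results of these data known. The authors deposited 1 FPKM value per gene and mouse (24239 rows), and a comparison table with group FPKM, p-values, q-values, a log2 fold change and the resulting call, per the file headers. Its fold column also holds spreadsheet errors for infinite values. Per the submitters' processing notes, reads were handled with Cufflinks and Cuffdiff, TopHat2 2.1.0 with Bowtie2 2.2.6, and FastQC 1.0.0, on mm10. For the annotation and the counting's strand setting, details were not given in the sources used here, so overlapping and antisense genes could not be separated. Cacna2d1 was left out because its value in sham 2 is a failed estimate.

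FPKM is not a count, so a linear model with group alone was fitted to log2(FPKM + 1) by limma (version 3.58.1, R 4.3.3), using a trended empirical Bayes variance. Tests were two-sided. It covered the 11994 genes whose mean FPKM reached 1, with Benjamini-Hochberg adjustment over all of them. This scale understates the change of low genes. The script was tested on simulated data. The series design describes 3 separate mice per group, so p-values measure the spread between mice. Effective depth came from 644 single-exon genes, whose low values were whole multiples of 1 fragment, within 0.05, after the length was shortened by 166 bases. Counting errors cover counting only. Deposited starts count from 0 and were raised by 1. Named mouse by mouse were core subunits, the 3 members of each class at each end of the fold changes, the 3 most abundant of each class, Ndufa4, Ndufa4l2, Ndufab1, and members nearest each module's median. A single member enters the counts, sums and medians but is not reported here by itself. Ndufs4 and the list of non-overlapping subunits were named after their values were seen, and the genes of complexes III, IV and ATP synthase were listed after the files were opened.

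Alternatives were quantile normalization, centring, equal FPKM sums, filters at 5 or at none, a pseudocount of 0.1, an untrended variance, a replicate block, each mouse left out and, added after seeing the data, fits without pacing 2 and 3 and without pacing 3 and sham 3.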

Additional observations from a re-analysis of the deposited data

How the results depend on the processing

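No subunit or assembly factor was called in the reported fit (0 of either class), and 0 were called under any of the 16 alternatives. Over all genes the count of calls was 0 in the reported fit, 6 without a filter and between 0 and 100 when 1 mouse was left out, the highest without sham 1. Genes with an unadjusted p under 0.05 split into 620 higher and 442 lower as reported, 969 and 148 after rescaling to the same sum, 514 and 609 after centring, and 537 and 581 after quantile normalization. With a replicate block 7 genes were called and no call of a member changed. Deviations of mice with the same number were weakly correlated across genes (r = -0.13, -0.02 and -0.02), and those with different numbers had r from -0.10 to 0.11. The labels state no pairing, and with 3 mice per group these correlations cannot decide whether one exists.

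The subunit median lay between -0.20 and -0.08 when 1 mouse was left out, and was -0.043 without pacing 3 and sham 3. The assembly factor median lay between -0.10 and -0.057 when 1 mouse was left out, and was -0.027 after rescaling and -0.032 without pacing 2 and 3. The median over all genes was 0.062 after rescaling and -0.0068 without pacing 2 and 3. Of 480 values of named members, 29 had the opposite sign, in 11 of 30 members. After rescaling these were Ndufa5 (0.038), Ndufaf2 (0.027), Ndufaf5 (0.047), Ndufaf6 (0.00080), Ndufs1 (0.00105) and Ndufv1 (0.035). After centring it was Ndufc2 (-0.012), and after quantile normalization Ndufa3 (0.014), Ndufa5 (0.0025) and Ndufv1 (0.015). With 1 mouse left out the ranges were -0.14 to 0.035 for Ndufa5, -0.029 to 0.041 for Ndufc2, -0.098 to 0.0065 for Ndufaf2, -0.16 to 0.035 for Ndufv1 and -0.19 to 0.025 for Ndufs1. Without pacing 2 and 3 the values were Ndufa2 0.028, Ndufa4l2 -0.054, Ndufa5 0.066, Ndufaf2 0.047, Ndufaf5 0.0072, Ndufc2 -0.027 and Ndufv1 0.014. Without pacing 3 and sham 3 they were Ndufa2 0.040, Ndufa5 0.033, Ndufs7 0.011 and Ndufv1 0.097. The cause was not tested.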
